A study of Homo sapiens with 8 samples.

Results

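Amino acids enter and leave cells through carrier proteins in the plasma membrane. The genes described here are 10 such carriers, SLC7A11, SLC3A2, SLC7A5, SLC7A1, SLC43A1, SLC1A4, SLC1A5, SLC38A1, SLC38A2 and SLC6A9. They were taken as a list of symbols, chosen for this function with earlier results of these data known. Counts of the carriers set beside all genes below are therefore descriptions and not tests of the list. The carriers were found by their Ensembl identifiers among the 60230 genes of the count table. All 10 carriers had at least 180 counts in every library, passed the filter on low counts and were among the 13400 genes tested.

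The RNA came from HepG2, a human liver cancer cell line, in a version that overexpressed cytochrome P450 2C19 (CYP2C19), a liver enzyme that oxidises drugs and other foreign compounds. All cells, the controls included, carried the CYP2C19 construct and were kept under blasticidin, the antibiotic that selects for it. They were treated for 24 h with compound 4 (labelled metylcresol), compound 5 (tetrabut), compound 6 (cyclohexil) or the solvent DMSO alone, and each of the 4 groups had 2 replicates. Compounds 4 and 6 are bisphenols whose rings are joined by a methylene bridge and differ in that compound 4 carries tert-butyl and compound 6 cyclohexyl groups. Compound 5 has an ethane bridge, with tert-butyl groups also in the place of the ring methyl groups. Each compound was given at its own inhibitory concentration (IC50), determined in advance, so the concentrations differed between compounds. The study asked whether such plastic-related compounds interact with CYP2C19 and are toxic to liver cells with raised CYP2C19. These compounds were selected by their predicted binding to the enzyme and by their cytotoxicity.

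Between 9791659 and 17814595 reads were assigned to genes in each library (median 11108659.5). The 8 libraries expressed all 10 of the hepatocyte lineage markers checked, among them ALB, the gene of serum albumin, at 14369 to 20660 CPM, the unit used here, in which the counts of each library are brought to the same total after TMM normalization. Of 10 markers of blood, endothelial and stromal cells, PTPRC, DCN and LUM were at 0 in every library and 8 were below 2 CPM in every library, the exceptions being CD68 (20.0 to 39.3 CPM) and PDGFRB (5.02 to 25.3 CPM). The hepatocyte markers summed to 52064 to 56113 CPM under DMSO, 36548 to 44330 under compound 4, 44925 to 46107 under compound 5 and 39173 to 45419 under compound 6. The sums of the other markers were 26.8 to 36.1, 64.9 to 66.4, 28.9 to 38.9 and 46.3 to 47.2 CPM in the same order. These sums moved with the treatments, and their part in the results below was not tested. CYP2C19 itself was at 27.7 and 16.4 CPM under DMSO, 31.4 and 44.3 under compound 4, 52.8 and 38 under compound 5 and 23.9 and 21.2 under compound 6, and it was higher under compound 5 than under DMSO (log2 difference 1.05 ± 0.26, adjusted p = 0.04, edgeR).

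Amino acid carriers differ in what they move and how they are driven. SLC7A11 and SLC7A5 are light chains that reach the membrane only as partners of the heavy chain SLC3A2, the former to exchange cystine for glutamate, which feeds glutathione synthesis, and the latter to exchange large neutral amino acids such as leucine. Genes of this kind are known targets of ATF4, the transcription factor that cells make when amino acids are scarce or protein synthesis is disturbed, and SLC7A11 is also a known target of NRF2, which responds to oxidants and electrophiles. In liver, carriers in general supply amino acids for plasma proteins, the urea cycle and antioxidant defence. Liver tumours are known for raised levels of several of the carriers described here.

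The promoters of the carriers are shown because several of the genes were higher together under treatment. The reference table, taken from RefSeq on GRCh38.p14, held windows of 250 bases before to 50 bases after a transcript start for 9 of the 10 carriers, with 16 windows in all, and SLC7A11 had no entry. Each window was searched on both strands for TGATGNAA, the core of the element bound by CCAAT enhancer binding proteins with ATF4, and for TGACNNNGC, the core of the antioxidant response element bound by NRF2. TGATGNAA was found in 5 of the 16 windows (31.2%) and in 3.62% of all 35116 windows of the table. TGACNNNGC was found in 4 of the 16 windows (25.0%) and in 13.3% of all windows. Both motifs were found in the same window for SLC3A2 and SLC7A1, against 0.39% of all windows. The 250 bases before the SLC3A2 start (chr11:62881449-62881698, plus strand) hold the antioxidant core in capitals, and its leading letters TGACTCA are also those of the AP-1 motif:
SLC3A2: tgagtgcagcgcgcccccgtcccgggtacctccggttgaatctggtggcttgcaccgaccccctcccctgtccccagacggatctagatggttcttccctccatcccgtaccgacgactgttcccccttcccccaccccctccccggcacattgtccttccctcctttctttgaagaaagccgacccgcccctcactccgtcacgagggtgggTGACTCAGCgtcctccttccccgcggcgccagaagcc
The other matches are given as 30 bases around each match, 5′ to 3′ on the strand of the gene, with the match in capitals:
SLC3A2, TGATGNAA on the opposite strand, in the same window as above, chr11:62881719-62881748, plus strand: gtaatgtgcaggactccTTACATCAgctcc
SLC7A1, TGATGNAA, chr13:29595663-29595692, minus strand: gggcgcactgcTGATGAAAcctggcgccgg
SLC7A1, TGACNNNGC, chr13:29595755-29595784, minus strand: gtgcccggcggTGACGCGGCcgagcgggcc
SLC7A5, TGACNNNGC, chr16:87869491-87869520, minus strand: ggcggggttccTGACGCAGCtgcgggcggc
SLC1A5, TGATGNAA, chr19:46784893-46784922, minus strand: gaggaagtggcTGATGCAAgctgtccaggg
SLC1A5, TGACNNNGC on the opposite strand in another window, chr19:46787386-46787415, minus strand: tcctggatcttGCGAGGTCAgctcccgctc
SLC38A1, TGATGNAA, chr12:46266502-46266531, minus strand: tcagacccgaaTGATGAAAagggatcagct
SLC1A4, TGATGNAA on the opposite strand, chr2:64989381-64989410, plus strand: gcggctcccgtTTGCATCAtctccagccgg
Each match is a description of the letters, and binding was not measured. For SLC38A1 and SLC7A5, the end of the window with the match was not found in a transcript of GENCODE, the annotation used here for positions. The transcript start is less certain there. The windows of SLC38A2, SLC6A9 and SLC43A1 held neither motif.

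Relative to DMSO, every carrier that passed the test was higher and none was lower. Under compound 4, 5 of the 10 carriers passed the threshold, an adjusted p under 0.05 over all genes tested by the quasi-likelihood test of edgeR after Benjamini-Hochberg adjustment. These were SLC7A11, SLC3A2, SLC7A5, SLC38A1 and SLC43A1, all higher, and of all genes tested 5.60% were called higher in this comparison. Under compound 5, 7 carriers rose, SLC7A11, SLC3A2, SLC7A5, SLC7A1, SLC1A5, SLC38A1 and SLC38A2, where 5.35% of all genes were called higher. Compound 6 raised only SLC7A11 in this test, where 0.493% of all genes were called higher. At an unadjusted p under 0.05, 8, 9 and 8 of the carriers were higher under compounds 4, 5 and 6, against 15.1%, 15.6% and 10.9% of all genes. The median log2 difference of the 10 carriers was 0.52, 0.74 and 0.46, beside 0.01, 0.00 and 0.02 for all genes tested. The 3 comparisons share the DMSO libraries and are not independent of each other. In bulk RNA, a change in the number of cells of a kind and a change in RNA per cell cannot be told apart.

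The libraries themselves showed the same order. Both treated libraries lay above both DMSO libraries for 9 carriers under compound 4, for all 10 under compound 5 and for all 10 under compound 6, while 30.4%, 31.0% and 29.3% of all genes tested did so. The exception was SLC6A9 under compound 4. Together the carriers took 0.296% and 0.277% of the counts of the DMSO libraries. Their share was 0.402% and 0.492% under compound 4, 0.614% and 0.479% under compound 5 and 0.372% and 0.436% under compound 6, so that every treated library lay above both controls.

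These calls rested on few libraries. With either DMSO replicate left out, no carrier passed the threshold under any compound, although all 10 log2 differences stayed above 0. Without compound 4 replicate 2, no carrier was called under compound 4, and without compound 5 replicate 1 none under compound 5. Without either compound 6 library, none was called under compound 6 and 3 under compound 4. The labels give day 1 and day 2 as the time of the libraries of a group, whereas the methods give 24 h for all. Day 1 and day 2 were therefore read here as replicates 1 and 2. They do not say that they came from separate cultures, so the p-values measure the spread between these samples, which may be technical. With the replicate number as a block, 7 carriers were called under compound 4, 7 under compound 5 and 0 under compound 6.

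Of all carriers, SLC7A11, the cystine and glutamate exchanger (ENSG00000151012, chr4:138164097-138242349, minus strand), had the largest mean log2 difference over the 3 compounds, 1.5. Its level was 64.9 and 56.6 CPM under DMSO, 109 and 158 CPM under compound 4, 258 and 137 CPM under compound 5 and 168 and 218 CPM under compound 6. All 6 treated libraries were above both controls, and those of compound 5 spanned those of compound 6 and overlapped those of compound 4. The log2 difference from DMSO was 1.14 ± 0.28 (SE) under compound 4, a 2.2-fold increase (95% interval 1.42 to 3.41, adjusted p = 0.037). It was 1.70 ± 0.29 under compound 5, 3.24-fold (2.08 to 5.05, adjusted p = 0.011), and 1.67 ± 0.29 under compound 6, 3.18-fold (2.04 to 4.95, adjusted p = 0.048). SLC7A11 was the 1 carrier called under all 3 compounds. The call under compound 6 was not held with the replicate block (adjusted p = 0.058), nor with DESeq2's size factors, and over all alternatives its adjusted p was between 2.8e-30 and 0.44. Its antisense gene SLC7A11-AS1 had 6 counts over all libraries, 0.043% of the 14085 of SLC7A11.

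SLC3A2, the heavy chain that SLC7A11 and SLC7A5 need at the membrane (ENSG00000168003, chr11:62856102-62888875, plus strand), was at 225 and 220 CPM under DMSO. It reached 357 and 697 CPM under compound 4, 996 and 775 CPM under compound 5 and 318 and 524 CPM under compound 6. The treated libraries were all above the controls, and those of compound 5 were the highest of all. SLC3A2 rose 3.98-fold under compound 5 (95% interval 2.46 to 6.42, log2 difference 1.99 ± 0.31, adjusted p = 0.0093) and 2.37-fold under compound 4 (1.48 to 3.79, 1.24 ± 0.30, adjusted p = 0.033). Under compound 6 its log2 difference was 0.92 ± 0.30 and did not pass the threshold (adjusted p = 0.15, 0.026 in a fit of only the 4 samples compared, and between 2.4e-11 and 0.64 over all alternatives). The replicates of compound 4 differed widely, by 697 against 357 CPM, and without replicate 2 the log2 difference under this compound was 0.68. The window of SLC3A2 shown above was the only carrier window besides that of SLC7A1 with both motifs.

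SLC7A5, the leucine exchanger (ENSG00000103257, chr16:87830023-87869488, minus strand), was expressed at 446 and 461 CPM under DMSO, 628 and 745 CPM under compound 4, 723 and 721 CPM under compound 5 and 555 and 677 CPM under compound 6. No treated library overlapped the controls. Its increase was 1.52-fold under compound 4 (95% interval 1.25 to 1.83, log2 difference 0.60 ± 0.12, adjusted p = 0.019) and 1.59-fold under compound 5 (1.32 to 1.93, 0.67 ± 0.12, adjusted p = 0.015). Under compound 6 the log2 difference was 0.44 ± 0.12 (adjusted p = 0.11 in edgeR and 0.032 in DESeq2, and up to 0.57 over all alternatives). The changes of SLC7A5 were thus smaller than those of its heavy chain, with intervals that do not overlap under compound 5. The pseudogene copy SLC7A5P2 had 141 counts in all, 0.233% of those of SLC7A5, and reads shared between the copies may have been split.

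SLC7A1, which carries arginine and lysine (ENSG00000139514, chr13:29509410-29595688, minus strand), was at 172 and 156 CPM under DMSO, 189 and 246 CPM under compound 4, 299 and 244 CPM under compound 5 and 209 and 249 CPM under compound 6. The control libraries were again the lowest. It rose 1.65-fold under compound 5 (95% interval 1.30 to 2.11, log2 difference 0.73 ± 0.16, adjusted p = 0.025). The log2 difference was 0.41 ± 0.16 under compound 4 (adjusted p = 0.13) and 0.48 ± 0.16 under compound 6 (adjusted p = 0.15, and between 0.0079 and 0.61 over all alternatives), neither past the threshold.

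SLC43A1, a sodium-independent carrier of leucine and other large neutral amino acids (ENSG00000149150, chr11:57484534-57515786, minus strand), had 101 and 83.2 CPM under DMSO and 127 and 123 CPM under compound 4. It had 118 and 111 CPM under compound 5 and 114 and 125 CPM under compound 6. All treated libraries fell within a narrow range above the controls. SLC43A1 was called under compound 4 only, at 1.36-fold (95% interval 1.13 to 1.63, log2 difference 0.45 ± 0.12, adjusted p = 0.044), while the log2 differences under compounds 5 and 6 were 0.32 ± 0.12 (adjusted p = 0.11) and 0.38 ± 0.12 (adjusted p = 0.14). The direct comparisons of the compounds gave log2 differences of 0.12 for compound 4 against 5 (95% interval −0.14 to 0.38) and 0.07 for compound 4 against 6 (−0.20 to 0.33), which did not pass the threshold.

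SLC1A5 and SLC1A4 belong to the same family of sodium-dependent exchangers of small neutral amino acids, of which SLC1A5 also carries glutamine. SLC1A5 (ENSG00000105281, chr19:46774883-46788594, minus strand) was at 437 and 431 CPM under DMSO, 540 and 640 CPM under compound 4, 761 and 717 CPM under compound 5 and 515 and 621 CPM under compound 6. The libraries of compound 5 were above those of both other compounds, and all treated libraries were above the controls. SLC1A5 rose 1.70-fold under compound 5 (95% interval 1.41 to 2.06, log2 difference 0.77 ± 0.12, adjusted p = 0.0099). Under compound 4 the log2 difference was 0.44 ± 0.12, and the adjusted p, which rounds to 0.05, lay just above the threshold. It passed with the replicate block (adjusted p = 0.034) and in DESeq2 (adjusted p = 0.011), and over all alternatives it was between 0.0043 and 0.27. Under compound 6 the log2 difference was 0.39 ± 0.12 (adjusted p = 0.14).

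SLC1A4, which carries serine and alanine (ENSG00000115902, chr2:64988477-65023865, plus strand), was not called under any compound. It was at 72.6 and 73.9 CPM under DMSO, 77.4 and 98.2 CPM under compound 4, 74.8 and 74.7 CPM under compound 5 and 77.1 and 97.9 CPM under compound 6. The treated libraries were above the controls, but those of compound 5 by about 1 CPM. The log2 difference was 0.03 ± 0.15 under compound 5 (95% interval −0.30 to 0.36, adjusted p = 0.91), 0.26 ± 0.15 under compound 4 (adjusted p = 0.28) and 0.26 ± 0.15 under compound 6 (adjusted p = 0.38). Under compound 5 the intervals of SLC1A4 and SLC1A5 did not overlap. SLC1A4 had the smallest mean log2 difference of the 10 carriers over the compounds, 0.18, and a window of its promoter held TGATGNAA.

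SLC38A2 and SLC38A1 are sodium-coupled carriers that bring in glutamine, alanine and other neutral amino acids. SLC38A2 (ENSG00000134294, chr12:46358189-46372867, minus strand) was the most abundant of the 10 carriers per kilobase of exon. Its level was 1204 and 939 CPM under DMSO, 1722 and 1773 CPM under compound 4, 2818 and 1727 CPM under compound 5 and 1404 and 1394 CPM under compound 6. The compound 6 libraries were the closest to the controls and did not overlap them. SLC38A2 rose 2.12-fold under compound 5 (95% interval 1.55 to 2.90, log2 difference 1.08 ± 0.20, adjusted p = 0.015), and without compound 5 replicate 1 the log2 difference was 0.68. Under compound 4 the log2 difference was 0.71 ± 0.20 (adjusted p = 0.055, 0.028 with the replicate block, and between 1.6e-08 and 0.33 over all alternatives). Under compound 6 it was 0.38 ± 0.20 (adjusted p = 0.33).

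SLC38A1 (ENSG00000111371, chr12:46183063-46270017, minus strand) was at 230 and 214 CPM under DMSO, 295 and 373 CPM under compound 4, 426 and 324 CPM under compound 5 and 305 and 351 CPM under compound 6. All treated libraries exceeded the controls, and the groups of the 3 compounds overlapped. The increase was 1.5-fold under compound 4 (95% interval 1.18 to 1.92, log2 difference 0.59 ± 0.16, adjusted p = 0.046) and 1.69-fold under compound 5 (1.32 to 2.15, 0.75 ± 0.16, adjusted p = 0.023). Under compound 6 the log2 difference was 0.56 ± 0.16, with an adjusted p of 0.11 in edgeR and 0.018 in DESeq2, and of up to 0.54 over all alternatives.

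SLC6A9, a glycine carrier (ENSG00000196517, chr1:43991500-44031467, minus strand), was the least abundant per kilobase of exon, at 18.7 and 15.1 CPM under DMSO, 18 and 24.6 CPM under compound 4, 23.7 and 24.4 CPM under compound 5 and 20.7 and 27.1 CPM under compound 6. Replicate 1 of compound 4 fell between the control libraries, and the other treated libraries were above them. The log2 differences were 0.35 ± 0.19 (adjusted p = 0.28), 0.52 ± 0.19 (adjusted p = 0.12) and 0.51 ± 0.19 (adjusted p = 0.20) under compounds 4, 5 and 6, and none passed the threshold. CCDC24 overlaps SLC6A9 on the opposite strand and had 8.612% as many counts. The library kit was a directional one, but the sources used here do not say whether the counting used strand.

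**Figure D1:**
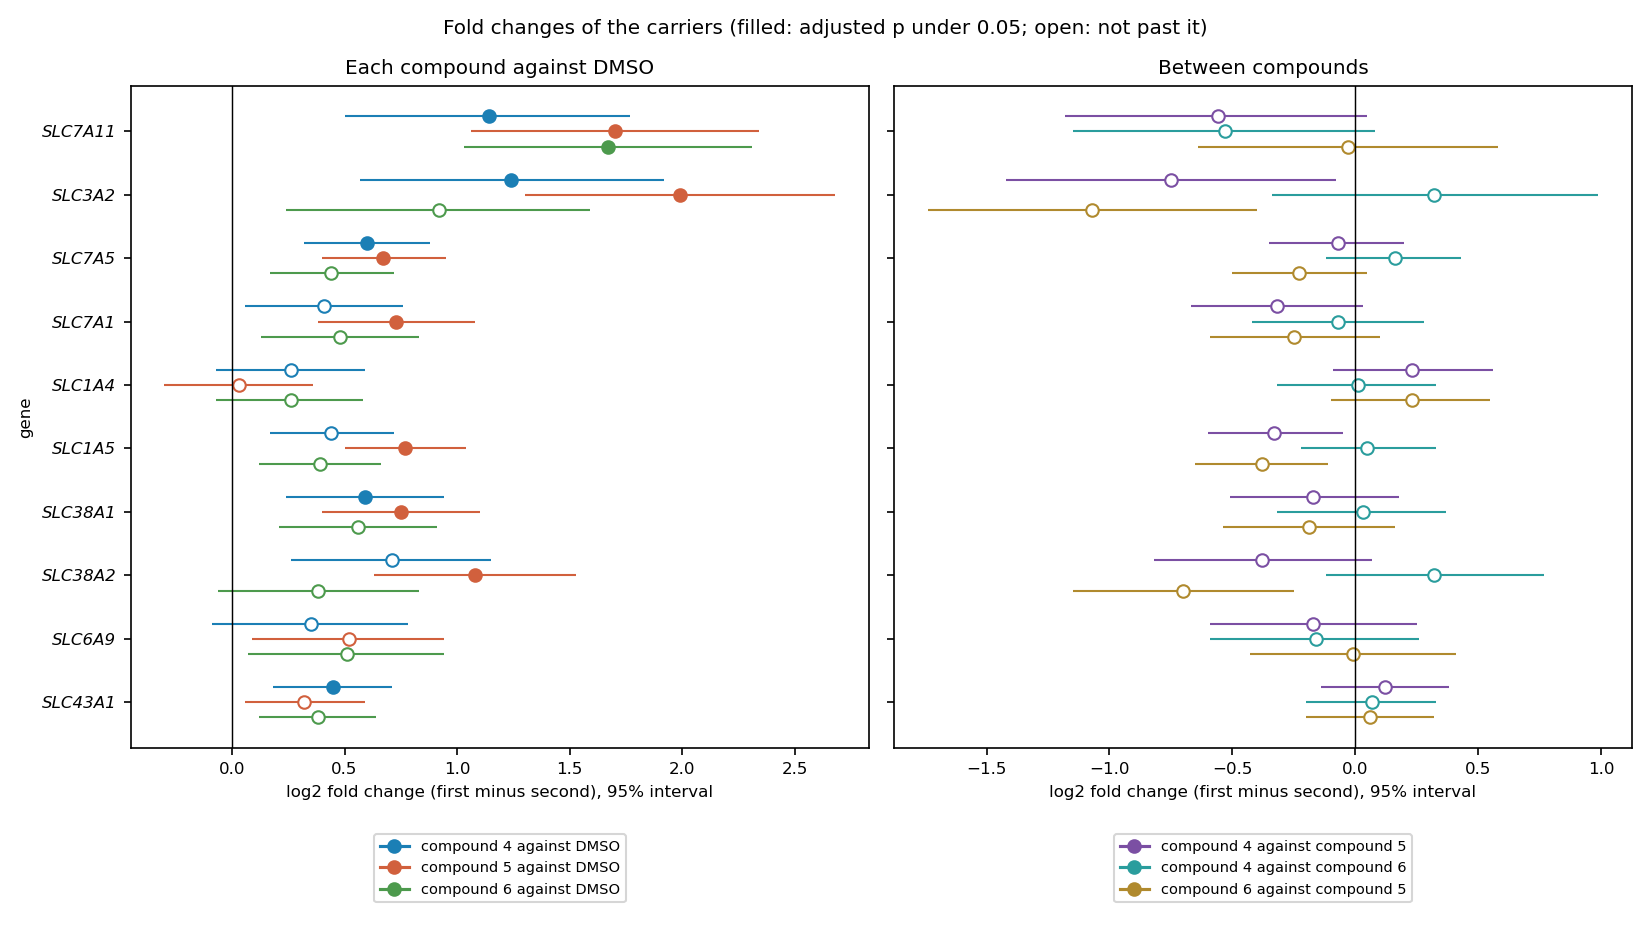
Log2 differences of the 10 carriers with 95% intervals (horizontal axis), for each compound against DMSO on the left and between compounds on the right, in which filled points mark an adjusted p under 0.05 and open points the others. On the left all points lie above 0 and 13 are filled, of which SLC3A2 under compound 5 is the farthest at 1.99. On the right no point is filled.

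Between compounds, 0 of the 10 carriers passed the threshold in edgeR in any of the 3 pairs, so 30 differences were compared. The concentrations were close to each other but not matched, since each compound was given at its own IC50. Of all genes tested, 0.313% were called for compound 4 against 5, 0 for 4 against 6 and 1.03% for 6 against 5. At an unadjusted p under 0.05, 2, 0 and 3 of the carriers differed in these pairs, while 16.2%, 7.05% and 18.5% of all genes did, and DESeq2 called 0, 0 and 1 of the carriers. The median log2 differences of the carriers were −0.24, 0.04 and −0.21 for compound 4 against 5, 4 against 6 and 6 against 5, beside −0.01, −0.01 and 0.00 for all genes.

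Between compounds 6 and 5, the largest differences were those of SLC3A2 and SLC38A2. SLC3A2 averaged 421 ± 146 CPM (SD, n = 2) under compound 6 and 886 ± 156 CPM under compound 5, a log2 difference of −1.07 ± 0.30 (95% interval −1.74 to −0.40, adjusted p = 0.11, edgeR). SLC38A2 averaged 1399 ± 6.72 CPM under compound 6 and 2273 ± 772 CPM under compound 5, a log2 difference of −0.70 ± 0.20 (−1.15 to −0.25, adjusted p = 0.11). This was the carrier called by DESeq2 in this pair (adjusted p = 0.0053), and it was also called in edgeR without compound 5 replicate 2 (adjusted p = 0.029), with values between 2.4e-08 and 0.47 over all alternatives. Without compound 5 replicate 1 the log2 difference of SLC38A2 was −0.30. For SLC1A5 the difference was −0.38 ± 0.12 (−0.65 to −0.11, adjusted p = 0.15). In each of these 3 genes both compound 6 libraries lay below both compound 5 libraries, as they did for 4 of the 10 carriers and for 24.3% of all genes tested.

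Compounds 4 and 6, which carry tert-butyl and cyclohexyl groups on otherwise alike rings, had carrier levels whose differences were not past the threshold and had intervals that included 0 for all 10 genes. The widest was that of SLC3A2, at 0.32 (95% interval −0.34 to 0.99), so a difference of nearly 1 on the log2 scale is within this interval. The narrowest interval was that of SLC43A1, from −0.20 to 0.33. SLC7A11 was lower under compound 4 than under compound 6 in both libraries, with a log2 difference of −0.53 (−1.15 to 0.08, adjusted p = 0.75). Compounds 4 and 5, which differ in the bridge and in the ring substituents, differed most in SLC3A2, at −0.75 (−1.42 to −0.08, adjusted p = 0.27), and in SLC7A11, at −0.56 (−1.18 to 0.05, adjusted p = 0.34). Both values rested on single libraries. For SLC7A11 the difference became −0.03 when compound 5 replicate 1 was omitted and −0.95 when its replicate 2 was. For SLC3A2 it became −0.35 when compound 4 replicate 1 was omitted and −1.32 when its replicate 2 was.

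Within a group, the carriers moved together between replicates. Replicate 2 was higher than replicate 1 for 9 of the 10 carriers under compound 4 and for 9 under compound 6, with median log2 differences of 0.34 and 0.28. Under compound 5 this held for 1 carrier (median −0.19) and under DMSO for 2 (median −0.12). Of all genes tested, 52.0%, 51.0%, 50% and 48.2% were higher in replicate 2 of compounds 4, 6 and 5 and of DMSO. Gaps between replicates were wide for SLC3A2 under compound 4, with 357 against 697 CPM, and for SLC7A11 under compound 5, with 258 against 137 CPM.

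Ratios within a library describe how partner genes stood to each other and carry no test. A kilobase of exon counts all annotated exons of a gene, so the size of a ratio depends on that length. The level of SLC3A2 per kilobase of exon was 6.47 and 7.24 times that of SLC7A11 under DMSO, 6.12 and 8.23 times under compound 4, 7.20 and 10.6 times under compound 5 and 3.52 and 4.49 times under compound 6. The heavy chain therefore stood lowest against this light chain in both compound 6 libraries. Against SLC7A5, its ratio was 0.464 and 0.437 under DMSO, 0.520 and 0.858 under compound 4, 1.26 and 0.985 under compound 5 and 0.525 and 0.710 under compound 6, so all treated libraries were above the controls. The ratio of SLC1A5 to SLC1A4 was 12.5 and 12.1 under DMSO and 21.2 and 20.0 under compound 5, with 14.5, 13.6, 13.9 and 13.2 in the libraries of compounds 4 and 6. That of SLC38A2 to SLC38A1 was 7.92 and 6.65 under DMSO, 8.85 and 7.22 under compound 4, 10.0 and 8.08 under compound 5 and 6.98 and 6.02 under compound 6. It overlapped the controls under compounds 4 and 6 and was just above them under compound 5.

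Levels per kilobase of exon set the carriers in order. The length counts all annotated exons of a gene and not only those of the expressed transcripts. Places in the order depend on this length and were not checked with another. Under DMSO, SLC38A2 led with a mean of 162 CPM per kilobase, followed by SLC1A5 (130), SLC7A5 (95.5), SLC3A2 (43.0), SLC43A1 (26.0), SLC38A1 (22.2), SLC7A1 (21.4), SLC1A4 (10.6), SLC7A11 (6.30) and SLC6A9 (3.27). The ranges of the replicates overlapped only between the neighbours SLC38A1 and SLC7A1. SLC38A2, SLC1A5 and SLC6A9 kept the first, the second and the last place in every group. Under compounds 4 and 6, SLC7A5 (145 and 130) stayed before SLC3A2 (102 and 81.3), with overlapping ranges under compound 4. Under compound 5, SLC3A2 (171) stood before SLC7A5 (152), again with overlapping ranges. SLC43A1, SLC38A1 and SLC7A1 overlapped as neighbours under each compound. SLC7A11 was in the ninth place under DMSO, below SLC1A4, and in the eighth under each compound. Its mean level per kilobase was 13.8 under compound 4, where its range overlapped that of SLC1A4 (12.7), 20.4 under compound 5 (SLC1A4 10.8) and 20.0 under compound 6 (SLC1A4 12.6), without overlap in the last 2.

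**Figure D2:**
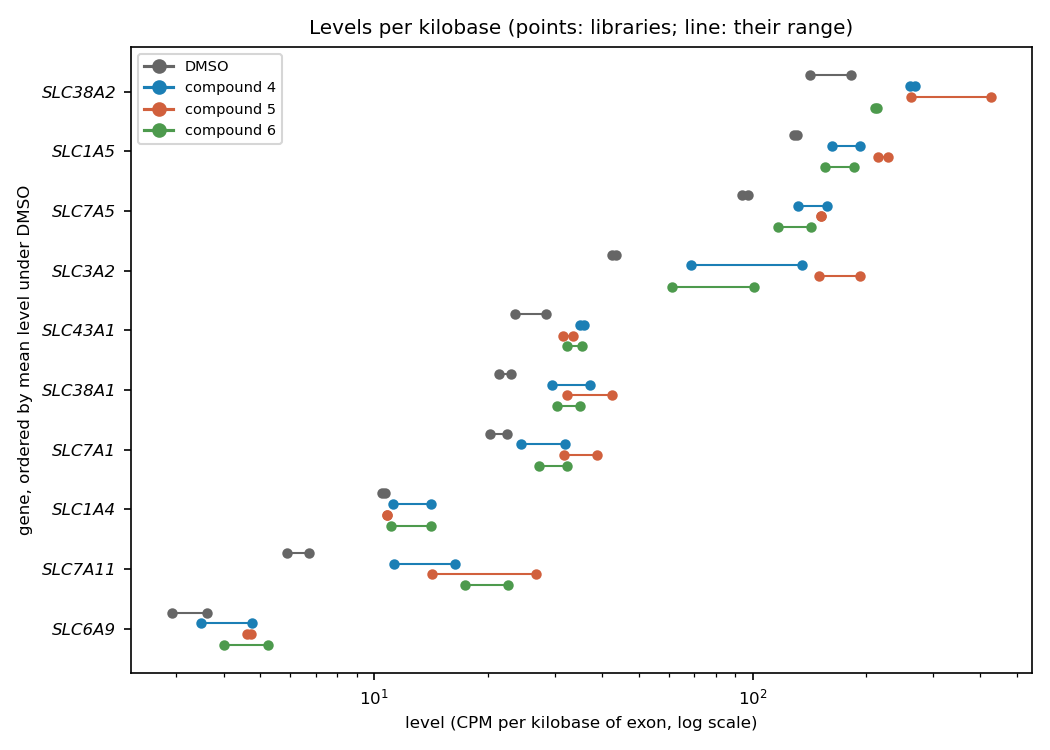
Level of each carrier in CPM per kilobase of exon (horizontal log axis), with points for libraries joined by a line over their range and genes ordered by their mean under DMSO. SLC7A11 lies below SLC1A4 under DMSO and above it under compounds 5 and 6.

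Other carriers listed for the plasma membrane were also measured. Of 32 further amino acid carriers listed, 13 had 0 counts in all libraries and 14 were tested. Under compound 4, 2 of the 14 rose, SLC1A7, a glutamate carrier, and SLC38A7, where 5.60% of all genes were called higher. The median log2 difference of the 14 was 0.17. Whether SLC38A7 belongs with the carriers of the plasma membrane or with those of lysosomes was not checked. SLC1A7 went from 7.17 and 4.27 CPM to 20.9 and 17.4 CPM (log2 difference 1.76 ± 0.28, adjusted p = 0.0078), and SLC38A7 from 22.3 and 22.8 CPM to 33.9 and 30.2 CPM (0.50 ± 0.13, adjusted p = 0.037). Under compound 5, 3 rose, with a median of 0.23, where 5.35% of all genes were called higher. At an unadjusted p under 0.05, 4 and 5 of the 14 were higher under these compounds, against 15.1% and 15.6% of all genes. SLC6A14, which carries neutral and cationic amino acids, had 25.1 and 17.0 CPM under DMSO and 64.0 and 32.7 CPM here (1.20 ± 0.31, adjusted p = 0.044). The taurine carrier SLC6A6 rose by 0.70 ± 0.16 (adjusted p = 0.03), and SLC7A6, another light chain of SLC3A2, by 0.52 ± 0.12 (adjusted p = 0.033). Under compound 6, 0 of the 14 were called by edgeR or DESeq2. An unadjusted p under 0.05 was found for 3 of them, against 18.6% of all genes in either direction. The lowest mean over the compounds was that of SLC38A4, at 2.05 and 1.26 CPM under DMSO and log2 differences of −0.16, −0.43 and −0.09, none called. Without DMSO replicate 2, none of the calls in this list held, and without DMSO replicate 1 only that of 1 gene did. Without compound 5 replicate 1, no call under compound 5 held, and without any 1 library of compounds 4 and 6, 1 gene was called under compound 4. In a fit of only the 4 samples compared, 1 of the 3 calls under compound 5 held. In DESeq2, 1 of the 2 calls under compound 4 and all 3 under compound 5 held. With the replicate block all of these calls held. Whether the list and the 10 carriers differ was not tested.

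Cystine brought in by SLC7A11 feeds glutathione, and 9 of 10 genes of glutathione synthesis and turnover were tested. GCLC and GCLM, the subunits of the enzyme that joins glutamate and cysteine, rose under compounds 4 and 5. Of the list, 2 and 4 genes were called higher under these compounds, where 5.60% and 5.35% of all genes were. GCLM was at 52.2 and 53.7 CPM under DMSO, 98.8 and 127 under compound 4, 135 and 110 under compound 5 and 86.4 and 124 under compound 6. Its log2 difference was 1.10 ± 0.19 (adjusted p = 0.011), 1.21 ± 0.19 (adjusted p = 0.0096) and 0.99 ± 0.19 (adjusted p = 0.054). GCLC rose by 0.97 ± 0.20 under compound 4 (adjusted p = 0.019) and by 1.21 ± 0.20 under compound 5 (adjusted p = 0.011). Under compound 5, CTH, which makes cysteine from cystathionine, and GSR, glutathione reductase, also rose, by 1.4 ± 0.26 (adjusted p = 0.016) and 0.55 ± 0.10 (adjusted p = 0.015). No gene of the list was called under compound 6 in edgeR, where 0.575% of all genes were called in either direction. At an unadjusted p under 0.05, 5 genes of the list differed, while 18.6% of all genes did, and DESeq2 called 4 of the list. The lowest, GGT1, had log2 differences of 0.10, −0.42 and −0.20, none called. With either DMSO library left out 0 genes of the list were called, and likewise 0 under compound 4 without its replicate 2 and 0 under compound 5 without its replicate 1.

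Known ATF4 targets other than carriers were called higher for 9, 15 and 3 of the 31 tested under compounds 4, 5 and 6, with median log2 differences of 0.51, 0.65 and 0.62, where 5.60%, 5.35% and 0.493% of all genes were called higher. At an unadjusted p under 0.05, 22, 23 and 22 of them were higher, against 15.1%, 15.6% and 10.9% of all genes. The number called in either direction under compound 4 went from 10 to 17 in DESeq2, and under compound 6 from 3 to 14 in DESeq2 and to 17 in a fit of only the 4 samples compared. The highest was GDF15, a secreted stress protein, which went from 384 and 255 CPM under DMSO to 1446 and 2075 CPM under compound 4, 3005 and 1723 CPM under compound 5 and 871 and 1657 CPM under compound 6. ALDH18A1, an enzyme of proline synthesis, was the 1 gene of the list that fell, by 0.49 on the log2 scale under compound 4 (adjusted p = 0.034). ATF4 itself was at 424 and 406 CPM under DMSO, 519 and 575 under compound 4, 679 and 623 under compound 5 and 479 and 630 under compound 6, and passed the threshold under compound 5 (0.65 ± 0.13, adjusted p = 0.022). CHAC1, a known target that breaks down glutathione, was listed at 0 in every library and was not tested. Of the NRF2 targets other than carriers, 13, 10 and 4 of the 21 tested were called higher, with medians of 0.65, 0.30 and 0.37, beside the same shares of all genes. At an unadjusted p under 0.05, 18, 12 and 12 were higher, against the same 15.1%, 15.6% and 10.9% of all genes. Under compound 6 the number called was 9 in DESeq2 and 8 in the fit of 4 samples. The highest was SQSTM1, an autophagy receptor, at 399 and 351 CPM under DMSO and 1325 and 1632, 1656 and 1157, and 757 and 1217 CPM under compounds 4, 5 and 6. These lists share GCLC, GCLM, GSR and CTH with that of glutathione or with each other. Without DMSO replicate 2, 0 of the ATF4 targets and at most 2 of the NRF2 targets were called under any compound, and without DMSO replicate 1 at most 2 and 6. Without compound 4 replicate 2, the calls under compound 4 numbered 1 and 6 in these lists, without compound 5 replicate 1 those under compound 5 numbered 2 and 4, and without compound 6 replicate 2 those under compound 6 numbered 0 and 0.

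Genes whose pattern over the 8 libraries was closest to that of SLC7A11 were found by the root mean square difference of log2 CPM, with 0.5 CPM added and each gene set to its DMSO mean. They were KLF9 (0.170), ASNS (0.174), FBLIM1 (0.187), ADM2 (0.236) and SH3BP2 (0.238), against a median of 1.32 over all genes tested. ASNS, which makes asparagine, had log2 differences of 1.4, 1.58 and 1.69 under compounds 4, 5 and 6, beside 1.14, 1.70 and 1.67 for SLC7A11. KLF9, a transcription factor, had 1.23, 1.65 and 1.57. For SLC1A4 the closest genes were CDKN1A (0.060), IQCB1 (0.067), ARHGAP27 (0.071), NLK (0.073) and DESI1 (0.073), against a median of 0.33. None of these genes was called under any compound, as SLC1A4 was not. These distances are descriptions, and the libraries they rest on are the same for all genes.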

How the data were processed

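RNA was sequenced from 8 samples of CYP2C19-overexpressing HepG2 cells in 4 groups of 2 replicates. Transcript abundance was estimated by the authors with Salmon 1.5.0, summarized to genes with tximeta, and deposited as whole-number counts without normalization. The genome build in the submitters' processing notes was GRCh38, and positions were taken from GENCODE 29. The paper names a directional kit for the libraries. Whether the counting used strand is not given in the sources used here, and offsets for transcript length were not used. The labels give 2 libraries as merged from 2 runs, the first ones of DMSO and of compound 4.

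From these counts, edgeR 4.0.16 in R 4.3.3 was used to compute TMM factors and to fit all 8 samples together with no block. The 13400 genes kept by filterByExpr (minimum count of 10) were tested by quasi-likelihood, with Benjamini-Hochberg adjustment over all of them and a threshold of 0.05. DESeq2 1.42.0 was used for its Wald test and its size factors as alternatives. Further alternatives were a replicate block, fits limited to the 4 samples compared, no filter on low counts, a filter of at least 10 counts in all samples, and each library omitted in turn. With 2 samples against 2, no permutation test can pass the threshold and none was run. CPM are counts of each library brought to the same total with the TMM factors, errors of log2 differences are standard errors, and 95% intervals use the degrees of freedom of the fit. The fitting was tested on simulated data.

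The pairing of replicates comes from the labels' day 1 and day 2, which the labels call a time although the incubation was 24 h for all samples. Days were read as replicate numbers. The differences between replicates 2 and 1 had correlations between −0.16 and 0.30 over the 6 pairs of groups, across 13400 genes, which are not independent replicates. All 10 carriers were named. From each further gene list the members with the highest and the lowest mean difference over the compounds were named. So were ATF4, CHAC1, GCLC and GCLM, the called genes of the plasma membrane list, and the 5 genes closest in pattern to 2 carriers. CTH, GSR, CTNS, SESN1, FLCN and FNIP2, which the rule does not take, were named after their calls were seen. A result that this rule takes is not reported here. The carriers and lists were chosen with earlier results of these data known. Promoter windows came from a RefSeq table on GRCh38.p14. Python 3.11.15 with pandas 2.3.3 and matplotlib 3.10.9 produced the tables and plots. Cytotoxicity and cell cycle data were not analysed here.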

Additional observations from a re-analysis of the deposited data

How the results depend on the processing

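The direction of the carriers was stable and the calls were not. Of 420 values of single carriers against DMSO under the alternatives, 0 changed sign, 48 lost a call and 27 gained one, and of 420 between compounds 9 gained a call and 22 changed sign, none of them called. Without a filter on low counts, carriers called under compounds 4 and 6 numbered 8 and 7, and between compounds 4 and 5, 4 and 6, and 6 and 5 they numbered 3, 1 and 3. Under compound 6, where 1 carrier was called, the number was 3 in DESeq2, 4 in a fit of only the 4 samples compared, 0 with DESeq2's size factors and 0 with the replicate block, and DESeq2 called 1 between compounds 6 and 5. The block, whose numbers come from the day in the labels, changed no other call of a carrier than those of SLC7A11 under compound 6 and of SLC1A5 and SLC38A2 under compound 4. With 1 library left out, carriers called ranged from 0 to 7 under compound 4, 0 to 7 under compound 5, 0 to 1 under compound 6 and 0 to 1 between compounds 6 and 5, and the lone sample of a group was then assumed to vary like the others.

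Over all genes, 1275, 1112 and 77 were called under compounds 4, 5 and 6, and 42, 0 and 138 between compounds 4 and 5, 4 and 6, and 6 and 5. Without the filter these became 2383, 2431, 1355, 750, 259 and 990. With DESeq2, compound 6 had 518 and the pairs 194, 59 and 364. The replicate block gave 128, 1 and 269 for the pairs, and a fit of only the 4 samples compared gave 1023 for compound 6, 10 between compounds 4 and 5 and 49 between compounds 6 and 5. DESeq2's size factors gave 47 for compound 6. At least 10 counts in every sample gave 198 for compound 6, 65 between compounds 4 and 5 and 5 between compounds 4 and 6. With 1 library left out, the numbers ranged from 43 to 1681, 46 to 1814 and 2 to 432 under compounds 4, 5 and 6, and from 9 to 25, 0 to 13 and 0 to 105 between compounds. The cause of these differences was not tested. With 2 libraries a group, a missed threshold does not show equal levels. SLC6A9, with 2090 counts in all, had the fewest reads of the carriers.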

Other observations

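Of 17 amino acid carriers of lysosomes and mitochondria listed, 14 were tested, and their median log2 difference from DMSO was −0.03, 0.25 and −0.01 for compounds 4, 5 and 6, in that order. Under compounds 4 and 5, 1 of the 14 was called higher in each, close to the 5.60% and 5.35% of all genes. At an unadjusted p under 0.05, 4 and 9 of the 14 differed in either direction, while 27.5% and 28.4% of all genes did. The 4 under compound 4 were near that share. SLC66A1, which lets lysine and arginine out of lysosomes, was at 18.3 and 14.9 CPM under DMSO and rose under compound 4, to 29.8 and 33.9 CPM (0.94 ± 0.21, adjusted p = 0.025, edgeR's quasi-likelihood test). CTNS, the lysosomal cystine carrier, was at 23.3 and 22.7 CPM under DMSO and passed the threshold under compound 5, at 31.4 and 30.9 CPM (0.44 ± 0.12, adjusted p = 0.049, with 0.046 to 0.24 over the alternatives). SFXN3, a sideroflexin of mitochondria, was the lowest of the list, with log2 differences of −0.67, −0.66 and −0.34, none called in this fit. Under compound 6, 0 of the 14 were called by edgeR or DESeq2. An unadjusted p under 0.05 was found for 1 of them, against 18.6% of all genes in either direction. With either DMSO library left out, no gene of this list was called.

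All 26 genes listed for the sensing of amino acids were tested. Under compounds 4 and 5, 2 and 3 of them were called in either direction, near the 9.51% and 8.30% of all genes. At an unadjusted p under 0.05, 6 and 8 of them differed, near the 27.5% and 28.4% of all genes. SESN1, which holds back the growth kinase complex mTORC1, fell by 0.65 on the log2 scale under compound 4 (19.8 and 21.8 CPM under DMSO against 13.6 and 13.0 CPM, adjusted p = 0.041) and by 0.70 under compound 5 (10.9 and 14.6 CPM, adjusted p = 0.036). Its relative SESN2, a leucine sensor and ATF4 target, rose under compound 5, from 30.4 and 25.0 CPM to 63.3 and 47.4 CPM (1.00 ± 0.26, adjusted p = 0.046), a call that was lost with the replicate block (adjusted p just above 0.05). SESN2 was at 36.8 and 60.7 CPM under compound 6, where it did not pass the threshold (0.82 ± 0.26, adjusted p = 0.15), and SESN3 had log2 differences of −1.07, −0.69 and −0.46, none called. FNIP2 rose under compound 4 (0.52 ± 0.13, adjusted p = 0.038) and its partner FLCN, which acts with it at the lysosome, under compound 5 (0.64 ± 0.17, adjusted p = 0.048). Under compound 6, 0 genes of the list were called by edgeR and 1 by DESeq2. An unadjusted p under 0.05 was found for 2 of them, against 18.6% of all genes. With either DMSO library left out, 0 genes of the list were called under any compound. The calls under compound 4 also fell to 0 when any 1 library of compounds 4 and 6 was left out. Without compound 5 replicate 1 those under compound 5 fell to 0, and without replicate 1 or 2 of compound 6 to 1 and 2.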
